A study of Mus musculus with 8 samples.

Results

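Alveolar type 1 cells are the flat epithelial cells that cover most of the gas exchange surface of the lung. They share a distal progenitor with the cuboidal, surfactant-making alveolar type 2 cells, and their thin membrane carries caveolae, water channels and a characteristic set of surface glycoproteins. FGF10, made by the lung mesenchyme and sensed by the epithelium through FGFR2b, is known as a factor that keeps distal epithelium in a progenitor or type 2 state. The 10 genes described here are Hopx, Ager, Gprc5a, Pdpn, Emp2, Cav1, Aqp5, Clic5, Akap5 and Rtkn2, all in use as markers of type 1 cells in the mouse. They were chosen by name, as the array features whose platform symbol matched, and 10 of the 17229 named genes tested were such members. They had 14 of the 62976 array features. A gene with several features was represented by the one with the highest mean over all arrays.

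The tested lungs were labelled Fgf10+/- and the others wild-type, with 4 samples of each on 1-colour (Cy3) Agilent arrays. All pups had the C57Bl/6J strain background and all had been in 85% oxygen from postnatal day 0 to day 3, an exposure used to model disturbed alveolar development, and no room air samples were analysed here. The samples are called independent, but litters are not named, so the spread that p-values rest on is that of these 8 samples and may be technical in part. The labels do not say which part of Fgf10 is deleted, whether it is a germline allele, or what the TG in the sample titles of the Fgf10+/- lungs stands for.

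The whole array set needs 4 facts. Pearson correlations between arrays lay between 0.971 and 0.980 within a group and between 0.969 and 0.982 across groups. Fgf10 read 7.81, 7.99, 8.10 and 8.28 in Fgf10+/- arrays 1 to 4, against 7.53, 8.16, 7.91 and 7.64 in wild-type arrays 1 to 4 (log2 intensity, as are all array values below). Its mean was thus not lower in the arrays labelled Fgf10+/- (8.04 ± 0.20 against 7.81 ± 0.28, SD, n = 4 each, exact two-sided permutation p = 0.2), so the gene does not check the labels, on which every direction below rests. Lung markers were bright, with the type 2 gene Sftpc and the club cell gene Scgb1a1 near the top of the scale at 15.99, while the tested genes of oesophagus, skin and skeletal muscle had a median level of 3.72, near the filter level of 2.76. After centring each of these outside genes on its 8-array mean, they averaged 0.48 in wild-type array 4 and -0.22 to 0.19 in the other arrays.

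None of the 10 type 1 cell genes differed between the genotypes past the threshold. Over all 17229 genes 0.795% were called (limma with Benjamini-Hochberg adjustment over all genes, adjusted p below 0.05), 39 higher (0.226%) and 98 lower (0.569%) in Fgf10+/- lungs, and the adjusted p of the members ranged from 0.199 to 0.99. Their median log2 difference, Fgf10+/- minus wild-type, was -0.06, beside 0.01 over all genes. The 2 members farthest from 0 pointed in opposite directions, Cav1 at -0.41 and Aqp5 at 0.31. For the other 8 genes the 95% confidence intervals all covered 0 and lay between -0.35 and 0.49, so that a difference above 1.41-fold lay outside each of them. An unadjusted p below 0.05 was found for 2 of 10 members, beside 11.2% of all genes. In 1 member, Cav1, the arrays of the groups did not overlap, beside 6.64% of all genes. A negative sign was found in 7 of 10 members, beside 48.7% of all genes. In whole lung RNA, fewer cells of a type and less RNA per cell cannot be told apart.

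**Figure D1:**
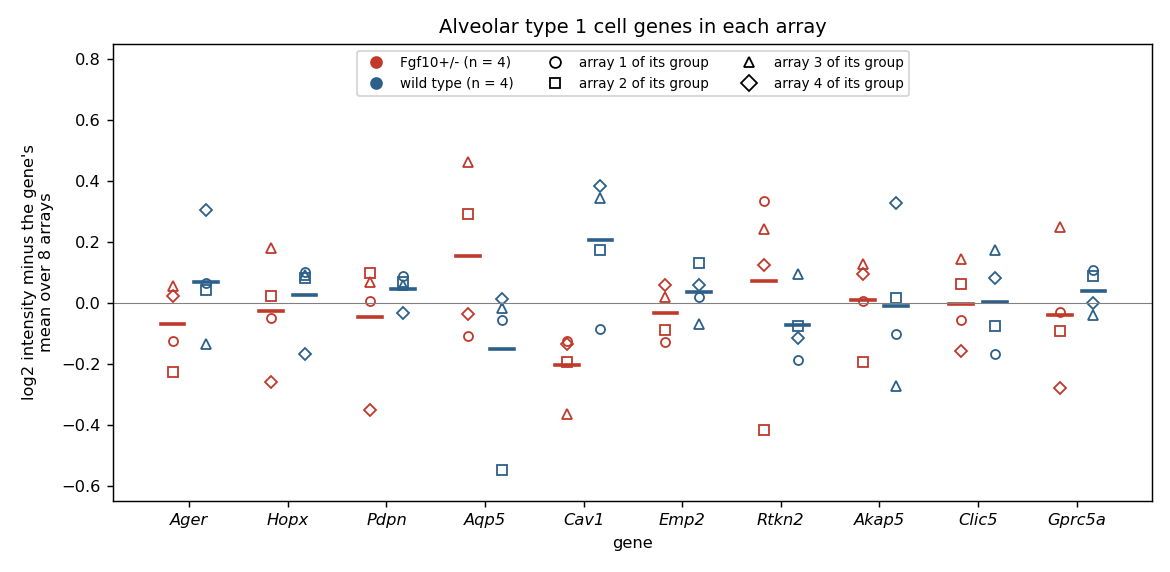
Log2 intensity of each type 1 cell gene after subtracting its 8-array mean (vertical axis), with Fgf10+/- arrays left of wild-type arrays for each gene, a marker shape per array number and a bar at each group mean (n = 4 each). Array numbers were not taken to pair samples across groups. Cav1 is the gene whose groups do not overlap, and wild-type array 2 lies far below the other wild-type arrays for Aqp5.

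The regulator in the set is Hopx, a homeodomain-only protein that does not itself bind DNA and whose expression marks cells taking on the type 1 fate. Hopx read 13.45, 13.52, 13.68 and 13.24 in Fgf10+/- arrays, against 13.60, 13.58, 13.59 and 13.33 in wild-type arrays. Array 4 was the lowest in both groups, and the groups overlapped. The difference was -0.06 (95% CI -0.26 to 0.15, limma adjusted p = 0.881). The other Hopx feature gave -0.05, with means of 12.94 and 12.99 in Fgf10+/- and wild-type arrays.

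Of the receptors, Ager encodes RAGE, which binds advanced glycation end products and sits on the basal membrane of type 1 cells. Ager read 12.12, 12.02, 12.30 and 12.27 in Fgf10+/- arrays, against 12.31, 12.29, 12.11 and 12.55 in wild-type arrays. Wild-type array 4 was the highest of all 8 and Fgf10+/- array 2 the lowest, with the remaining arrays intermixed. The difference was -0.14 (95% CI -0.35 to 0.07, limma adjusted p = 0.644). Gprc5a, an orphan receptor induced by retinoic acid and known as a lung tumour suppressor in the mouse, read 14.45, 14.39, 14.73 and 14.20 in Fgf10+/- arrays, against 14.59, 14.57, 14.44 and 14.48 in wild-type arrays. The Fgf10+/- arrays enclosed all 4 wild-type arrays, with an SD of 0.22 against 0.07. Its difference was -0.08 (95% CI -0.29 to 0.13, limma adjusted p = 0.822), which was -0.18 without Fgf10+/- array 3 and 0.00 without Fgf10+/- array 4.

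Of the membrane proteins, Pdpn encodes podoplanin (also called T1-alpha), a mucin-type glycoprotein that lymphatic endothelium and mesothelium carry too. Pdpn read 12.48, 12.57, 12.54 and 12.12 in Fgf10+/- arrays, against 12.56, 12.54, 12.53 and 12.44 in wild-type arrays. Fgf10+/- arrays 1, 2 and 3 lay among or next to the wild-type ones, and array 4 lay below them all. The difference was -0.09 (95% CI -0.30 to 0.11, limma adjusted p = 0.789). The dimmer Pdpn feature read 6.93, 7.19, 6.74 and 7.04 in Fgf10+/- arrays, against 7.31, 7.21, 7.19 and 7.27 in wild-type arrays, a difference of means of -0.27 that was not tested. Lymphatic genes stood beside this. All 4 lymphatic genes tested had a negative sign with a median of -0.52, and the vessel protein gene Mmrn1 fell by 0.67 on the log2 scale (limma adjusted p = 0.0211). Prox1 and Flt4 of this list were dim, with means of 3.53 and 4.20 in Fgf10+/- arrays, against 4.49 and 4.52 in wild-type arrays, beside the filter level of 2.76. The Mmrn1 call was lost without the variance trend and without Fgf10+/- arrays 1, 3 or 4 or wild-type array 2. All 5 mesothelial genes also had a negative sign, with none called, but wild-type array 4 stood apart for them, and without it Upk1b had 0.13, Lrrn4 -0.02 and the list a median of -0.44. The part of either cell type in the Pdpn values was not tested.

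Emp2, a tetraspan protein that regulates membrane traffic and caveolin levels, was the steadiest member. It read 13.96, 14.00, 14.11 and 14.15 in Fgf10+/- arrays, against 14.11, 14.22, 14.02 and 14.15 in wild-type arrays. The groups overlapped, and the SD within groups, pooled over both, was 0.09, beside a median of 0.26 over all genes. The difference was -0.07 (95% CI -0.22 to 0.08, limma adjusted p = 0.787), while the other, dimmer feature gave -0.26 with an SD of 0.26 in each group.

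Cav1 encodes caveolin 1, the coat protein of caveolae, which are abundant in type 1 cells and in the endothelium of lung capillaries. Cav1 read 8.62, 8.55, 8.38 and 8.61 in Fgf10+/- arrays, against 8.66, 8.92, 9.09 and 9.13 in wild-type arrays. All Fgf10+/- arrays lay below all wild-type arrays, though Fgf10+/- array 1 and wild-type array 1 were close. The difference was -0.41 (95% CI -0.68 to -0.14), which is 1.33-fold lower, and it did not pass (limma adjusted p = 0.199, unadjusted p = 0.00643). Its exact two-sided permutation p was 0.0286, the smallest that 4 against 4 arrays can give. Genes of blood vessel endothelium stood at a median of -0.05, with 10 of 13 negative and none called. The mean centred level of that endothelial list ranged from -0.12 to 0.06 in Fgf10+/- arrays and from -0.10 to 0.12 in wild-type arrays. Of the wild-type arrays, array 1 was the lowest for Cav1 and for this endothelial list. Of the Fgf10+/- arrays, array 3 was the lowest for Cav1 but the highest for the list. The part of endothelium in the Cav1 values was not tested.

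Aqp5 encodes aquaporin 5, the water channel of the apical type 1 membrane, which airway gland cells also make. Aqp5 read 13.05, 13.45, 13.62 and 13.12 in Fgf10+/- arrays, against 13.10, 12.61, 13.14 and 13.17 in wild-type arrays. Fgf10+/- arrays 2 and 3 were the highest of the 8, while Fgf10+/- arrays 1 and 4 lay among or next to wild-type arrays 1, 3 and 4. The difference was 0.31 (95% CI 0.00 to 0.61), which is 1.24-fold higher, and it did not pass (limma adjusted p = 0.441, exact two-sided permutation p = 0.257). Without wild-type array 2, whose value of 12.61 was the lowest, the difference was 0.17. The other Aqp5 feature gave 0.21 and showed the same order of extremes, with Fgf10+/- array 3 highest at 10.71 and wild-type array 2 lowest at 9.66.

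**Figure D2:**
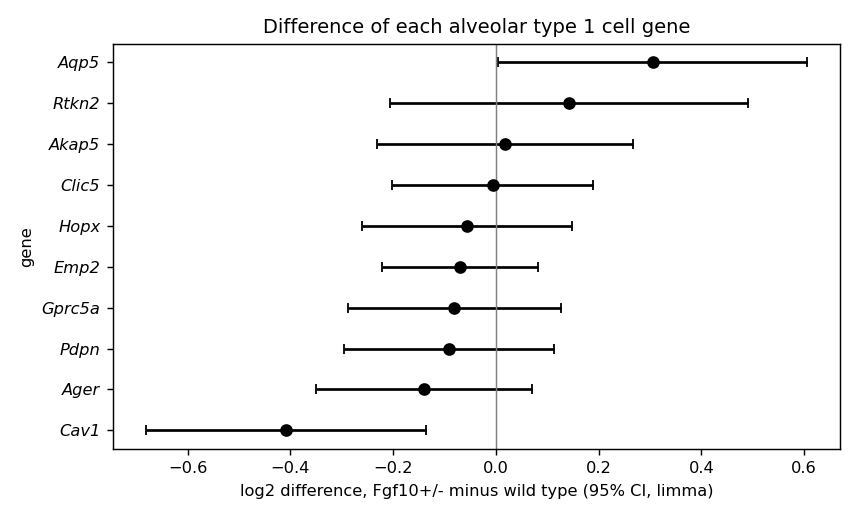
Log2 difference, Fgf10+/- minus wild type, of each type 1 cell gene (points) with its 95% confidence interval from limma (bars), ordered from Aqp5 at 0.31 at the top to Cav1 at -0.41 at the bottom. The intervals of 8 genes cover 0, and that of Aqp5 starts just above 0.

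The start regions of Cav1 and Aqp5 are shown because these genes had the largest differences and pointed in opposite directions. Each is the 250 bases before the annotated start (RefSeq, GRCm38.p6, plus strand, 5′ to 3′), with capitals marking GC boxes, the letters GGGCGG on either strand, which factors of the SP and KLF families bind. The Cav1 stretch is chr6:17306085-17306334 and the Aqp5 stretch is chr15:99590778-99591027.
Cav1: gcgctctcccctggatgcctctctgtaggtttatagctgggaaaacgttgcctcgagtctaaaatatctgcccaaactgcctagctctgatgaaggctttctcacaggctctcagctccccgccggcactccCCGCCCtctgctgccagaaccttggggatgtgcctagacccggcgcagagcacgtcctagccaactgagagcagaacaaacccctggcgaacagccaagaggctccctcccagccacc
Aqp5: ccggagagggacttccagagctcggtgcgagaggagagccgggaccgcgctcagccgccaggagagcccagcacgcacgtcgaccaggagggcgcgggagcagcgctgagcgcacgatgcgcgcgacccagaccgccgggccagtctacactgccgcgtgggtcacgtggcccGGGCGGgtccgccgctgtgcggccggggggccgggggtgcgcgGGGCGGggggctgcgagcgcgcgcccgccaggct

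Cav1 has another annotated start in the table, and the stretch before its most upstream start is printed. The stretch before the other start, chr6:17307390-17307639, had 12 CpG dinucleotides and 0 GC boxes. The Aqp5 stretch was rich in CpG, with 38 CpG dinucleotides and 2 GC boxes, while this Cav1 stretch had 10 CpG dinucleotides and 1 GC box, beside a median of 6 CpG dinucleotides over 32851 such windows of all genes. RefSeq windows were at hand for 8 of the 10 genes (10 windows, with 2 each for Hopx and Cav1), not for Gprc5a and Rtkn2. A GC box occurred in 5 of the 10 windows, against 32.7% of all windows. The TEAD motif CATTCC and the NKX2 motif TNAAGTG, searched on both strands, occurred in 0 of the 10 windows, against 12.6% and 10.1% of all windows. No match overlapped another, and a match or its lack describes only these letters in this window.

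Clic5, the other gene with a channel name, encodes a chloride intracellular channel protein that links membranes to the actin cytoskeleton through ezrin. Clic5 read 12.83, 12.95, 13.03 and 12.73 in Fgf10+/- arrays, against 12.72, 12.81, 13.06 and 12.97 in wild-type arrays. The groups covered almost the same range. The difference was -0.01 (95% CI -0.20 to 0.19, limma adjusted p = 0.99), the member nearest to 0. Akap5, an anchoring protein that holds protein kinase A and calcineurin at the membrane, read 12.74, 12.54, 12.86 and 12.83 in Fgf10+/- arrays, against 12.63, 12.75, 12.46 and 13.06 in wild-type arrays. The wild-type arrays enclosed all Fgf10+/- arrays, with array 4 the highest and array 3 the lowest of the 8. Its difference was 0.02 (95% CI -0.23 to 0.27, limma adjusted p = 0.972).

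Rtkn2, which encodes rhotekin 2, lay well above the filter level in all 8 arrays. It read 8.60, 7.85, 8.51 and 8.39 in Fgf10+/- arrays, against 8.08, 8.19, 8.36 and 8.15 in wild-type arrays. Fgf10+/- arrays 1, 3 and 4 were the highest of the 8 and Fgf10+/- array 2 was the lowest. The difference was 0.14 (95% CI -0.21 to 0.49, limma adjusted p = 0.812). It was 0.31 without Fgf10+/- array 2 and 0.05 without Fgf10+/- array 1.

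The members did not share 1 order of the arrays. Fgf10+/- array 3 was the highest of the 8 for Hopx, Aqp5 and Gprc5a and the lowest for Cav1. Fgf10+/- array 4 was the lowest for Hopx, Pdpn and Gprc5a, and wild-type array 4 was the highest for Ager, Cav1 and Akap5. Averaged over the 10 members after centring each gene on its mean, Fgf10+/- arrays lay between -0.09 and 0.12 and wild-type arrays between -0.02 and 0.09. In 9 of 10 members the spread within groups was below the median over all genes. Wild-type array 4 also had the highest mean centred level of the mesothelial list, 1.90, where Fgf10+/- arrays ranged from -1.05 to 0.15 and wild-type arrays 1 to 3 from -0.69 to 0.64. Without wild-type array 4 the difference was -0.06 for Ager, -0.35 for Cav1 and 0.13 for Akap5.

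Of 23 further genes known from mouse type 1 cells, 21 were tested and none was called (median -0.10). A negative sign was found in 16 of the 21, beside 48.7% of all genes. An unadjusted limma p below 0.05 was found for 6 of the 21, beside 11.2% of all genes, and all 6 had a negative sign. Those with the smallest unadjusted p were Fstl3, a secreted activin inhibitor, at -0.46 (SE 0.14, limma adjusted p = 0.174), the matrix proteoglycan gene Spock2 at -0.29 (SE 0.11, adjusted p = 0.316) and the antioxidant enzyme gene Prdx6, also strong in type 2 cells, at -0.22 (SE 0.09, adjusted p = 0.341). Fstl3 was the only gene of the 21 whose groups did not overlap, beside 6.64% of all genes. It read 9.28, 9.31, 9.14 and 9.27 in Fgf10+/- arrays, against 9.45, 9.84, 9.46 and 10.09 in wild-type arrays. Wild-type array 4 was the highest array for Fstl3, Spock2 and Prdx6, and it had the highest mean centred level of the 21 genes, 0.18. Without wild-type array 4 the median of the list was -0.06, and 16 of the 21 had a negative sign. Whether the 6 genes kept an unadjusted p below 0.05 without that array was not tested. The type 1 cell sources of the capillary growth factor VEGFA and of type IV collagen gave -0.15 for Vegfa, 0.10 for Col4a3 and 0.05 for Col4a4, all with adjusted p above the threshold. Igfbp2, which marks mature type 1 cells, stood at -0.45 (SE 0.22, limma adjusted p = 0.47) and was called lower without wild-type array 1.

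**Figure D3:**
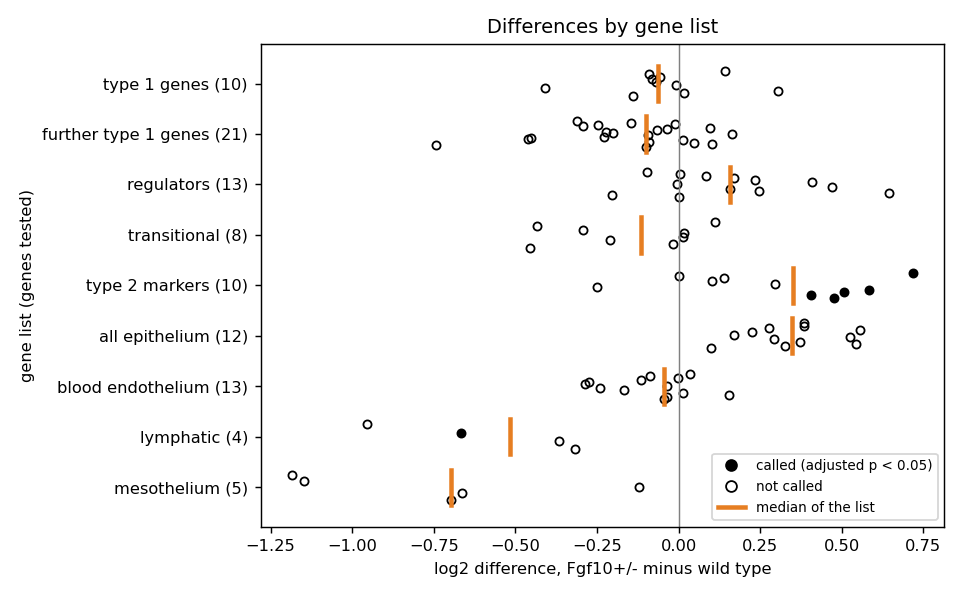
Log2 difference, Fgf10+/- minus wild type, of each tested gene (points, filled where called) in 9 gene lists, with the median of each list as an orange bar. The 10 type 1 genes centre on -0.06 with none called, while type 2 markers centre on 0.35 with 5 of 10 called.

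Regulators of the type 1 and distal epithelial fate gave no called gene among 13 tested (median 0.16, 10 positive). With the replicate block, or with wild-type array 1 left out, 1 of the 13 was called higher. Nkx2-1, the lung epithelial factor that controls both type 1 and type 2 genes, read 10.79, 10.76, 11.02 and 10.67 in Fgf10+/- arrays, against 10.45, 10.42, 10.48 and 10.26 in wild-type arrays. These groups did not overlap, as was so for 4 of the 13 regulators, Cebpa and Id2 among them, beside 6.64% of all genes. The Nkx2-1 difference of 0.41 missed the threshold (SE 0.09, limma adjusted p = 0.0691). Cebpa, a factor of type 2 cells, stood at 0.65 (SE 0.16, adjusted p = 0.0874) and Id2 of distal tip progenitors at 0.47 (SE 0.13, adjusted p = 0.154). The co-activators YAP and TAZ, which drive the type 1 fate, had values of -0.10 for Yap1 and 0.01 for Wwtr1, and their target genes Ccn1 and Ccn2 had 0.00 and -0.20, with none of these called. Of 8 tested genes of cells in transition from type 2 to type 1, none was called (median -0.11). The keratin gene Krt8 had 0.02 (SE 0.07) and the cell cycle inhibitor gene Cdkn1a had -0.45 (limma adjusted p = 0.0506). Plaur had -0.43 (SE 0.14, limma adjusted p = 0.237). With the filter at the 50th percentile, the mean of features, array weights or wild-type array 1 left out, 1 of the 8 was called lower. Without wild-type array 1 the median of the list was -0.03.

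Most type 2 markers and genes of all epithelium had a positive sign. Of 10 type 2 markers 5 were called higher in Fgf10+/- lungs and none lower (median 0.35), beside 0.226% of all genes called higher. They were Slc34a2, Abca3, Lamp3, Lpcat1 and the FGF-responsive factor gene Etv5, at differences of 0.41 (Etv5) to 0.72 (Slc34a2). Slc34a2, a phosphate transporter gene, ranged from 10.72 to 11.24 in Fgf10+/- arrays and from 10.26 to 10.39 in wild-type arrays. A positive sign was found in 9 of the 10 markers. Lyz2, which macrophages also express, was the negative one at -0.25, and Sftpc at 0.00 lay at the top of the scale, where a rise could not show. The surfactant genes Sftpb and Sftpa1 lay below that top, had differences of 0.14 and 0.10, and were not called. With 1 array left out 2 to 5 of the type 2 markers were called, 2 with the Xist level as a covariate and 0 without the variance trend. Among 12 genes found in all epithelium, such as the protease gene Prss8 at 0.56 (SE 0.12, limma adjusted p = 0.0516), none was called, and 12 of 12 had a positive sign with a median of 0.35. Wild-type array 4 had the lowest mean centred level of this list, -0.37, and without it the median was 0.24. Without wild-type array 3, 3 of the 12 were called higher, and 1 was with the filter at the 50th percentile. In each array the mean centred level of the type 1 genes minus that of the type 2 markers was -0.20, -0.20, -0.08 and -0.18 in Fgf10+/- arrays, against 0.10, 0.15, 0.26 and 0.17 in wild-type arrays. These differences did not overlap between groups, and they were not tested because the lists were chosen with results of these data known. The type 2 level alone already lay apart, at 0.09 to 0.20 in Fgf10+/- arrays against -0.24 to -0.08 in wild-type arrays. The type 1 level alone overlapped.

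**Figure D4:**
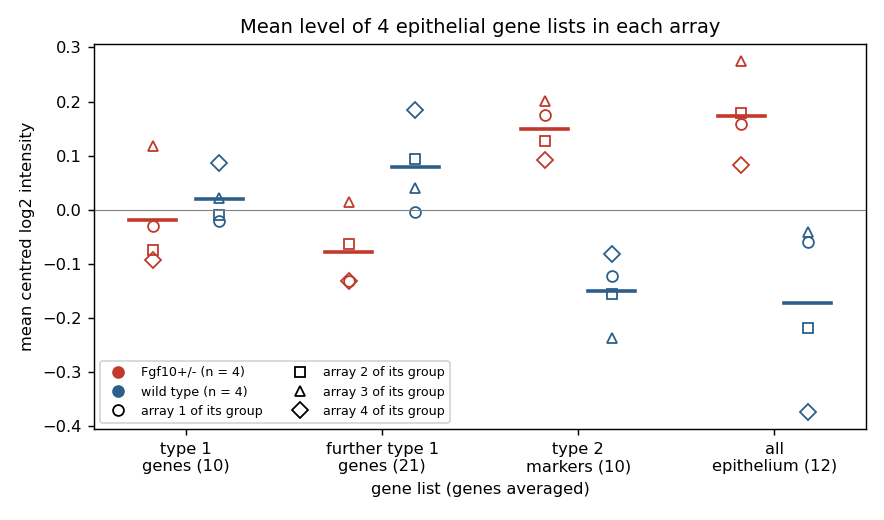
Mean over a list's genes of each array's log2 intensity minus the gene's mean over 8 arrays (vertical axis), for 4 epithelial lists, with Fgf10+/- left of wild type, a marker shape per array number and a bar at each group mean (n = 4 each). The groups overlap for the type 1 genes, between -0.09 and 0.12 against -0.02 and 0.09, and lie apart for type 2 markers and for genes of all epithelium.

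Scaling changed the calls of the type 1 genes. The distance of their median from that of all genes could not change, by the way the scaling works. When each array was scaled to its own mean of the 12 genes of all epithelium, every gene moved down by 0.35 in Fgf10+/- lungs relative to wild-type lungs, and the median over all genes became -0.34. On that scale 6 of the 10 members were called lower, namely Ager, Hopx, Pdpn, Cav1, Emp2 and Gprc5a, beside 16.7% of all genes called, of which 18 were higher and 2866 lower. The scaling moved every difference by the same amount and also changed standard errors, for Ager from 0.10 to 0.15. How much each added to the calls was not tested. The median of the members was -0.41, which lay 0.07 below the median of all genes. An equal shift of every gene leaves that distance as it was for any list, so it is no test of the members. Ager had -0.49 (SE 0.15, limma adjusted p = 0.0377) on that scale.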

How the data were processed

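The authors deposited log2 intensities of 8 arrays and named limma in the submitters' processing notes, giving neither version nor steps. The deposited log2 columns shared almost the same quantiles, so nothing was normalized again. How background was corrected is not stated in the sources used here, and no detection calls were used. Features with missing values were left out. Symbols came from the platform annotation (31465 features with 1 symbol, 0 with several, 31511 unnamed here), updated through RefSeq accessions (29050 matched). Features with a mean below the 30th percentile (2.76) were removed, leaving 17229 genes, each represented by its brightest feature, and all 10 members passed. Genes were tested with limma 3.58.1 in R 4.3.3 (lmFit, eBayes with a variance trend, two-sided), and single genes by exact permutation over 70 assignments. Members and lists were chosen with earlier results of these data known. The text names the members, called genes of the other lists and up to 3 genes of each list with the smallest unadjusted p, where a result turns on them. Igfbp2, Vegfa, Col4a3, Col4a4, Yap1, Wwtr1, Ccn1, Ccn2, Krt8, Sftpc, Sftpb, Sftpa1, Scgb1a1, Lyz2, Flt4, Upk1b and Lrrn4 were chosen after their values were seen. In 10 runs on simulated data (17229 genes, this comparison), 17.6% of log2 differences of 0.5 and 49.3% of those of 1 were recovered. Alternatives covered normalization, filter, features, variance model, array weights, Xist, replicate block and left-out arrays. The number of arrays limits the precision.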

Additional observations from a re-analysis of the deposited data

Results flagged for a closer look

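In the 20 groups of 4 arrays examined (10 genes in each genotype), 2 arrays lay far from the other 3 of their group by Dixon's criterion, where chance gives about 1 in 20 groups. Wild-type array 2 read 12.61 for Aqp5, below 13.10 to 13.17 in wild-type arrays 1, 3 and 4, and without it the Aqp5 difference was 0.17 in place of 0.31. Wild-type array 4 read 13.33 for Hopx, below 13.58 to 13.60 in wild-type arrays 1, 2 and 3.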

How the results depend on the processing

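Across 17 other settings, none of the 10 members was called except after scaling to the genes of all epithelium, where 6 were, and the smallest adjusted p elsewhere was 0.0747, for Cav1 without wild-type array 1. That scaling gave 2884 called genes in place of 137, 11 further type 1 genes called in place of 0, a member median of -0.41, and turned Aqp5 to -0.041, Rtkn2 to -0.204 and Akap5 to -0.328, as its downward shift of all genes would. The count over all genes was 1 without the variance trend and 80 with the Xist level as a covariate; the cause was not tested. With 1 array left out it ranged from 34 (without wild-type array 2) to 173 (without wild-type array 1), members called stayed at 0, further type 1 genes called ranged from 0 to 1, and the member median ranged from -0.107 to 0.005. Small differences changed sign in those runs: Hopx ranged from -0.125 to 0.021, Pdpn from -0.14 to 0.011, Akap5 from -0.071 to 0.131 and Clic5 from -0.063 to 0.05. Others kept their sign but moved by over 1.5 times: Ager ranged from -0.21 to -0.062, Emp2 from -0.103 to -0.036, Aqp5 from 0.173 to 0.392 and Rtkn2 from 0.054 to 0.307, and Gprc5a ranged from -0.178 to 0. Replicate numbers were not taken as pairs. Correlations of same-numbered deviations over all genes lay between -0.06 and 0.07, and 3 of 8 arrays correlated best with their own number. Whether same-numbered samples shared a litter or batch cannot be told from these values. With the replicate block 116 genes and 0 members were called. Of 170 member values under other settings, 151 kept their sign and side of the threshold. Simulated recovery of a 0.5 difference was low over genes drawn from all those tested, whose median SD within groups was 0.26. The members had a median SD of 0.16, and recovery for them alone was not simulated. A member difference of that size could still be missed by the call, which is why intervals are given.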
